A study of Mus musculus with 4 samples.

Results

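The cells described here were myogenic cells of the late Mesp1 lineage, taken as cells of the E9.5 and E10.5 libraries in which the transcripts of Myf5 and Myod1 together reached 2 or more unique molecular identifiers (UMIs, each counted as 1 captured transcript molecule). Only cells in which 1000 or more genes were detected and mitochondrial transcripts made no more than 10% of UMIs were considered. There were 107 such cells among 4052 retained cells at E9.5 (2.64%, exact Clopper-Pearson 95% interval 2.17 to 3.18%) and 291 among 8042 at E10.5 (3.62%, 3.22 to 4.05%). Together they made 398 of the 12094 retained cells of both late libraries, and of 22625 retained cells in the whole series. The values of Myf5 and Myod1 chose the cells, so their levels are given below as a description and were not tested.

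The series holds 4 libraries, 1 for each of the late stages E9.5 and E10.5 and 1 for each of the early stages E8.0 and E8.25 of the mouse embryo, and each gave raw UMI counts per gene in single cells. All embryos were Swiss Webster and carried Mesp1Cre;Rosa26-GFPflox/+, in which Cre is driven from the Mesp1 locus and labels early mesoderm and its descendants with GFP. The pharyngeal apparatus with the heart was dissected at E9.5 and E10.5 and the rostral part of the body at the earlier stages. Embryos of a stage were pooled, dissociated with trypsin, and GFP-positive, DAPI-negative cells were sorted. No mutant or treated group was included, so the comparisons are between cell sets within a library and, without a test, between stages. The late libraries held 74920880 UMIs in 4055 cells and 142850521 UMIs in 8070 cells. They shared 41 cell barcodes, within the 16 to 88 shared by the 6 pairs of libraries. With 1 library per stage, intervals on levels and shares cover counting error only, and stage, pool and library cannot be told apart.

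Skeletal muscle forms under the myogenic regulatory factors Myf5, Myod1, Myog and Myf6, basic helix-loop-helix transcription factors that bind the E-box DNA motif. In muscles of the head and neck that arise from the pharyngeal arches, called branchiomeric muscles, these factors are switched on in mesoderm that expresses Tbx1, Tcf21, Msc, Lhx2 and Isl1. In muscles of the trunk, limb and tongue they act downstream of Pax3 in somites, and Lbx1 marks the precursors that migrate out of them.

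By the RefSeq annotation of GRCm38.p6, Myf5 lies at chr10:107482908-107486927, with Myf6 beside it at chr10:107492848-107494723. Myod1 lies at chr7:46376474-46379092 and Myog at chr1:134290004-134292548. The promoter windows of Myf5, Myog and Cdh15 are shown because these genes separated the cells from their closest neighbours or chose them, and because the factors that define the cells bind the letters CANNTG. Each window runs from 250 bases before a start to 50 bases after it, 5′ to 3′ on the gene's strand, and every CANNTG is in capitals. The Myf5 window is chr10:107486085-107486384 on the minus strand and lies inside the annotated span of the gene. The Myog window is chr1:134289754-134290053 on the plus strand, and the Cdh15 window is chr8:122848124-122848423 on the plus strand.
Myf5: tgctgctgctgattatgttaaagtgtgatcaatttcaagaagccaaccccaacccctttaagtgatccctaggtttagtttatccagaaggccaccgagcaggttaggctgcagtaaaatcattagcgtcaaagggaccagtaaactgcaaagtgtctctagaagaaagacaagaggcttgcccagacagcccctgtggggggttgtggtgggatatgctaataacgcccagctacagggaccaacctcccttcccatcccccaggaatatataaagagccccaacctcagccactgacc
Myog: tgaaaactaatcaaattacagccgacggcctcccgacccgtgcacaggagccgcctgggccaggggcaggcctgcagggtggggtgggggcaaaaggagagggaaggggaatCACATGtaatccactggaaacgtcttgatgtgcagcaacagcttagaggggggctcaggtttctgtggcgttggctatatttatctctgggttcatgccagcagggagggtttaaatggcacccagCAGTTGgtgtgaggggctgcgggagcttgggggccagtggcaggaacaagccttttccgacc
Cdh15: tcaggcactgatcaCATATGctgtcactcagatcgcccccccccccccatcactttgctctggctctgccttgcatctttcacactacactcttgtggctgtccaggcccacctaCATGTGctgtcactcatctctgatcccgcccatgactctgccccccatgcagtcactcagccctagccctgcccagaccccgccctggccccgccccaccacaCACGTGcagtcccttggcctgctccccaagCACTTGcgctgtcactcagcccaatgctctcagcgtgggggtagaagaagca
The Myf5 window held 0 matches of CANNTG, the Myog window 2 and the Cdh15 window 4. Of the 32851 mouse promoter windows, 72.3% held at least 1, since the motif is short and reads alike on both strands. These matches describe letters only. Windows for Myod1, Myf6, Pax3 and Lbx1 were not analysed here.

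Myf5 was detected in most of the chosen cells at both stages, whereas Myod1 was found mainly at E10.5. At E9.5, 97 cells held Myf5 only, 5 held both genes and 5 held Myod1 only, and at E10.5 the counts were 175, 54 and 62. The highest sum of both genes in 1 cell was 11 UMIs in the earlier library and 23 in the later. Just inside the threshold stood 59 and 138 cells with 2 UMIs, and just outside it 141 and 300 cells with 1 UMI, so more cells held 1 UMI than were chosen. The chosen cells held 69.8% of all Myf5 UMIs at E9.5 (316 of 453) and 74.4% at E10.5 (661 of 889). For Myod1 they held 83.3% (20 of 24) and 82.9% (348 of 420).

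**Figure D1:**
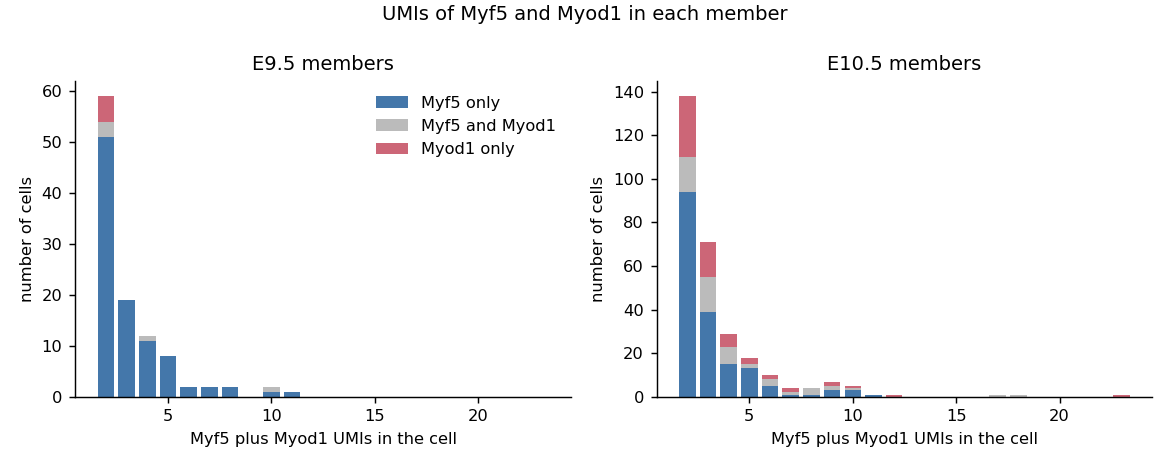
Number of cells (vertical axis) by the sum of Myf5 and Myod1 UMIs in the cell (horizontal axis) for the 107 cells of the E9.5 library and the 291 of the E10.5 library, coloured by which gene was detected. Cells with 2 UMIs were the most frequent at both stages, and cells with Myod1 made a larger part of the E10.5 bars.

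Cells that should lack both genes served as background. Among endothelial cells, taken as cells with 3 or more UMIs of Cdh5 plus Pecam1, 0 of 187 met the rule at E9.5, which allows a share of up to 1.60%, and 1 of 375 at E10.5 (0.267%). The endothelial cells had a median of 17735 and 18775 UMIs per cell, against 21251 and 17563 in the myogenic cells. Among E10.5 cells with 20% or more haemoglobin UMIs, 2 of 1108 met the rule (0.181%), at a median of 28636 UMIs. That limit was chosen after seeing the data. The planned erythroid set was cells with 100 or more UMIs of Hbb-y plus Hba-x. In it 45 of 1666 cells met the rule at E10.5 (2.70%), against 3.62% of all retained cells there. Whether the cells of the planned set should lack both genes was not tested.

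The label was checked against genes that the rule did not use. Myog, which drives terminal muscle differentiation, was not detected at E9.5 (0 of 107 cells, which allows a share of up to 2.80%) and was detected in 76 of 291 cells at E10.5 (26.1%, 21.2 to 31.6%). The same gene was found in 0 of 375 endothelial cells at E10.5, and in 13.4% of the myogenic cells once each cell was thinned to 5000 UMIs. Eya1, a transcriptional coactivator upstream of the myogenic factors, was detected in 48 of 107 and 224 of 291 cells, E9.5 first, against 2.14% and 8.80% of endothelial cells. After thinning these shares were 10.3% and 42.6%, against 1.61% and 2.67%. The progenitors described below had it in 29.7% and 40.5% of cells, and in 9.42% and 21.0% after thinning, so at E9.5 the thinned shares of myogenic cells and progenitors lay close together. Chrna1, the muscle acetylcholine receptor subunit, had 0 and 6 UMIs at these stages, and Fgfr4 had 0 and 5, so these markers were at or near 0. Cdh15, the cadherin of muscle precursors, was found in 11 of 107 and 91 of 291 cells, against 0 of 187 and 2 of 375 endothelial cells. Slow troponin T, Tnnt1, was found in 40 of 107 and 205 of 291 cells, against 46 of 187 and 93 of 375 endothelial cells.

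Expression levels are given below as CPM, the UMIs of a gene per 1000000 UMIs summed over a set of cells in 1 library. They were 125 and 120.2 CPM for Myf5, at E9.5 and E10.5 in that order here and throughout, and 7.89 and 63.3 CPM for Myod1. Myog was at 0 and 54.0 CPM, and 1 cell supplied 16.8% of its E10.5 UMIs. Myf6, the fourth factor of the family, was at 1.18 and 4.55 CPM. The rule required 2 UMIs of Myf5 and Myod1 in every cell, so the levels of these genes follow from it in part, whereas Myog and Myf6 were not used.

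The first question was how the myogenic cells differed from cells that carried branchiomeric genes and had no detected Myf5 or Myod1. The progenitor set was taken as cells with 0 UMIs of Myf5 and Myod1, and 3 or more UMIs of Tcf21, Msc and Lhx2 from at least 2 of these genes. It held 639 and 590 cells, with a median of 18889 and 16009.5 UMIs. At E10.5 Myog was detected in 11 and Cdh15 in 39 of the 590 cells. The lack of Myf5 and Myod1 UMIs thus did not show that muscle genes were off. Other mesenchyme that carried the selecting genes was not removed, so the name progenitors stands for the rule only. Counts were summed per library and set and fitted with edgeR's quasi-likelihood test with the library as a block, and p-values were adjusted by Benjamini-Hochberg to a threshold of 0.05. The fit leaves 1 residual degree of freedom, and its p-values combine the spread between these 2 libraries with spread that edgeR shares across genes. Of 11755 genes tested, 83 were higher (0.706%) and 146 lower (1.24%) in the myogenic cells, and 220 of these 229 had the same direction in both libraries.

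Some regulators of muscle identity were higher in the myogenic cells than in the progenitors, 1 of 2 testable myogenic factors among them. Myog was at 0 CPM in both sets at E9.5 and at 54.0 against 1.21 CPM at E10.5 (log2 fold change 5.48, SE 0.32, adjusted p = 0.00427 by edgeR). Its call rested on the E10.5 library, and its p-value measures no spread between libraries. Myf6 was at 1.18 and 4.55 CPM against 0.598 and 0.650 CPM and did not pass (2.21, adjusted p = 0.139). The transcriptional coactivators Eya1 and Eya2 passed as well, with log2 fold changes of 0.98 and 2.54. In their list of 10 genes, which holds Eya and Dach cofactors and partner factors, 3 were higher and 0 lower. Of the branchiomeric upstream factors, 1 of 8 tested passed, Ebf1, at 273 and 244 CPM against 137 and 140.4 (0.93, SE 0.08, adjusted p = 0.00693). With all cells thinned to 5000 UMIs and chosen anew, 25 and 72 myogenic cells remained and Ebf1 stood at -0.011. The T-box factor Tbx1 was at 297 and 100.2 CPM against 137 and 74.7 and did not pass (0.82, adjusted p = 0.0604).

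The genes that chose the progenitors were described only. Tcf21 was at 162 and 138 CPM in the myogenic cells against 166 and 180 CPM, and Msc at 52.8 and 64.8 against 55.3 and 119.9 CPM. Lhx2 was at 295 and 97.9 CPM against 169 and 58.2 CPM. The myogenic cells thus carried these branchiomeric factors at a level of the same order as the cells selected for them, with Lhx2 above and Msc at E10.5 below.

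**Figure D2:**
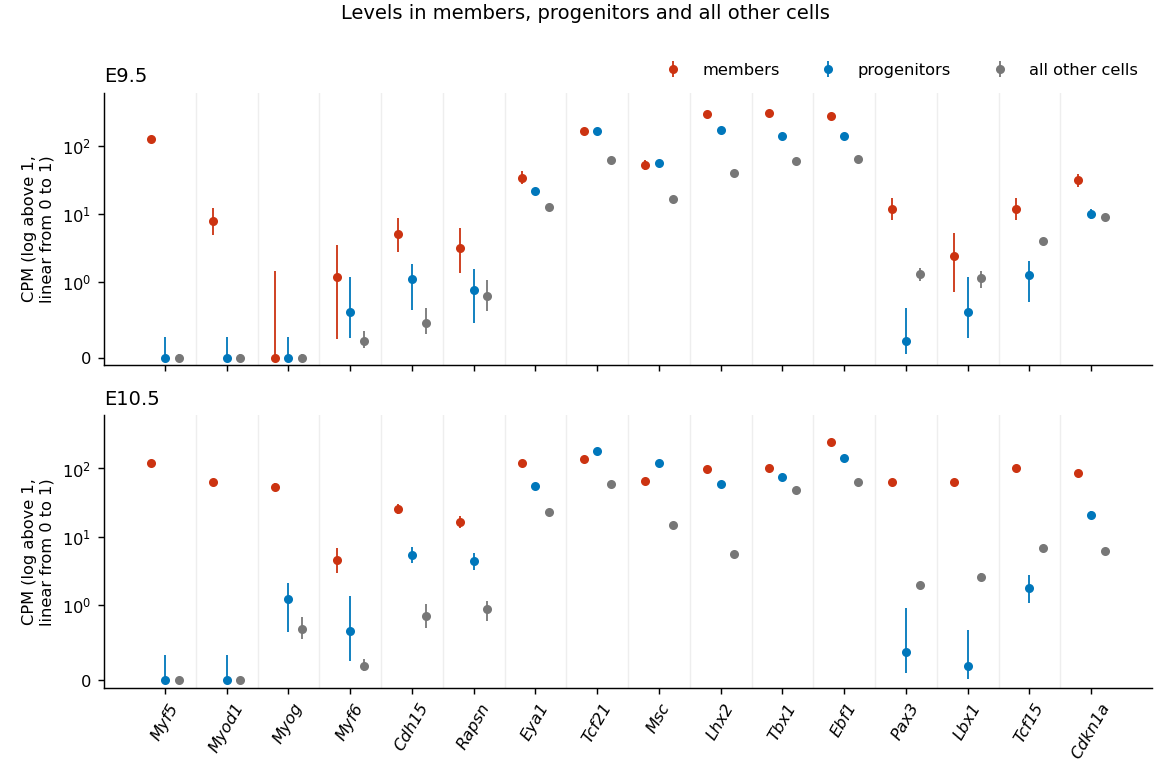
CPM (vertical axis, logarithmic above 1 and linear from 0 to 1) of 16 genes in the myogenic cells (members), the progenitors and all other cells, with E9.5 above and E10.5 below and exact Poisson 95% intervals as bars. Pax3, Lbx1 and Tcf15 stood far above the progenitors at E10.5, while Tcf21 and Msc did not.

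Genes of somitic and migratory muscle differed widely. Of 8 such genes tested, 4 were higher: Pax3 (6.85, SE 0.34), Lbx1 (6.02, SE 0.85), Tcf15, a factor of the paraxial mesoderm (5.02, SE 0.47), and Cxcr4, a chemokine receptor of migrating precursors (1.71, SE 0.19), with adjusted p from 0.000835 to 0.0289 by edgeR. Pax3 was at 11.8 and 63.3 CPM against 0.224 and 0.371 CPM in the progenitors. Lbx1 was at 2.37 and 64.2 CPM against 0.598 and 0.186 CPM. At E9.5 the values rested on few cells, since 1 cell held 60% of the 30 Pax3 UMIs and 1 cell held 83.3% of the 6 Lbx1 UMIs. Tcf15 was detected in 3 of 107 myogenic cells at that stage. The progenitors had been chosen on branchiomeric genes, so a cell with Pax3 and without Tcf21, Msc and Lhx2 could not enter that set.

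Few muscle effector genes were called. Of 19 early muscle targets tested, Cdh15 and Rapsn were higher, at 5.13 and 25.3 against 1.12 and 5.39 CPM for Cdh15 (2.26, SE 0.24, adjusted p = 0.0129), and 3.15 and 16.6 against 0.897 and 4.37 CPM for Rapsn, which clusters acetylcholine receptors (1.93, SE 0.29, adjusted p = 0.0338). Of 24 sarcomere genes, Tnnt1 (1.42) and Tpm2 (0.65) were higher and slow troponin I Tnni1 was lower (-1.76). A single cell held 73.1% of the Tnni1 UMIs of the myogenic cells at E9.5. The cell-cycle inhibitor Cdkn1a was at 31.1 and 85.5 CPM against 10.0 and 21.0 CPM (1.91, SE 0.14, adjusted p = 0.00427), and it was the 1 gene of 10 in the cell-cycle exit list that passed. None of the 37 S phase genes or the 50 G2/M genes passed in the edgeR test, with 2 and 5 of them at an unadjusted p under 0.05.

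Signalling genes moved in both directions. Among FGF receptors and response genes, Spry2 (1.36), Dusp6 (0.95) and Etv4 (1.08), which are switched on by FGF signalling, were higher and the receptor Fgfr2 was lower (-1.79), 4 of 10 tested. Of 15 Notch pathway genes, Lfng, which modifies Notch receptors, was higher (1.20), and the ligand Dll1 (2.33, adjusted p = 0.0657) and Hes6 (0.81, adjusted p = 0.0505) did not pass in the edgeR test. Of 10 helix-loop-helix partners and inhibitors, Tcf4, a dimer partner of the myogenic factors, passed (0.55). After the same thinning Etv4 turned to -0.47 and Tcf4 to -0.064.

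Connective tissue genes were lower. Of 12 tested, 8 were lower and 0 higher, with a list median of -1.22 beside 0.00 over all genes tested. Pdgfra, a receptor of mesenchymal cells, was at 3.94 and 4.55 CPM against 31.1 and 39.6 CPM (-3.03, SE 0.19, adjusted p = 0.00187). Foxf1 (-3.52), Osr1 (-3.79), Col1a1, Tbx18 (-1.93), Col3a1 (-1.46), Prrx1 (-0.97) and Sox9 (-0.90) were lower too, Sox9 turning to 0.29 after thinning. The 10 called genes ranked by fold change in both libraries were led on the lower side by Sfrp5 (-5.34), Sparcl1 (-4.48), Nkx6-1 (-4.07) and Cxcl13 (-3.98), and also held Tbx5 (-3.69), a factor of heart and lung mesoderm. Sfrp5 was at 1.58 and 0.182 CPM against 81.3 and 1.67 CPM. The epithelial keratins Krt8 (-2.83) and Krt18 (-1.65) and, of 16 Hox genes, Hoxc4 (-2.75) were also lower.

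Ranked by fold change on the higher side were Pax3, Lbx1, Tcf15, Fap (3.05), Eya2, Pcdh19 (2.27), Cdh15, Zcchc12, Rapsn and Ppargc1b (1.93). Fap, a cell surface protease, was at 0.789 and 9.09 CPM against 0.149 and 1.02 CPM. Markers of other cells had summed levels in the myogenic cells of 37.1 and 31.5 CPM for 8 endothelial genes, against 66.5 and 48.6 CPM in the progenitors, and of 12.2 and 19.3 CPM for 5 epithelial genes, against 99.8 and 51.4 CPM. The 7 macrophage genes summed to 0 and 4.55 CPM, against 0.149 and 2.51 CPM. The 8 erythroid genes summed to 11.4 and 11213 CPM, against 8.97 and 14472 CPM in the progenitors, and were thus abundant in both sets at E10.5. The 10 cardiomyocyte markers summed to 311 and 122 CPM, against 467 and 215 CPM in the progenitors, and 1 cell with 623 UMIs of cardiac contractile genes stood apart at E9.5, where the next cell had 5 and the median was 1. At E10.5 the highest cells had 288 and 37 such UMIs and the next 6. The call of Nppa as higher (3.62) came from that E9.5 cell, which held 100% of its UMIs there.

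**Figure D3:**
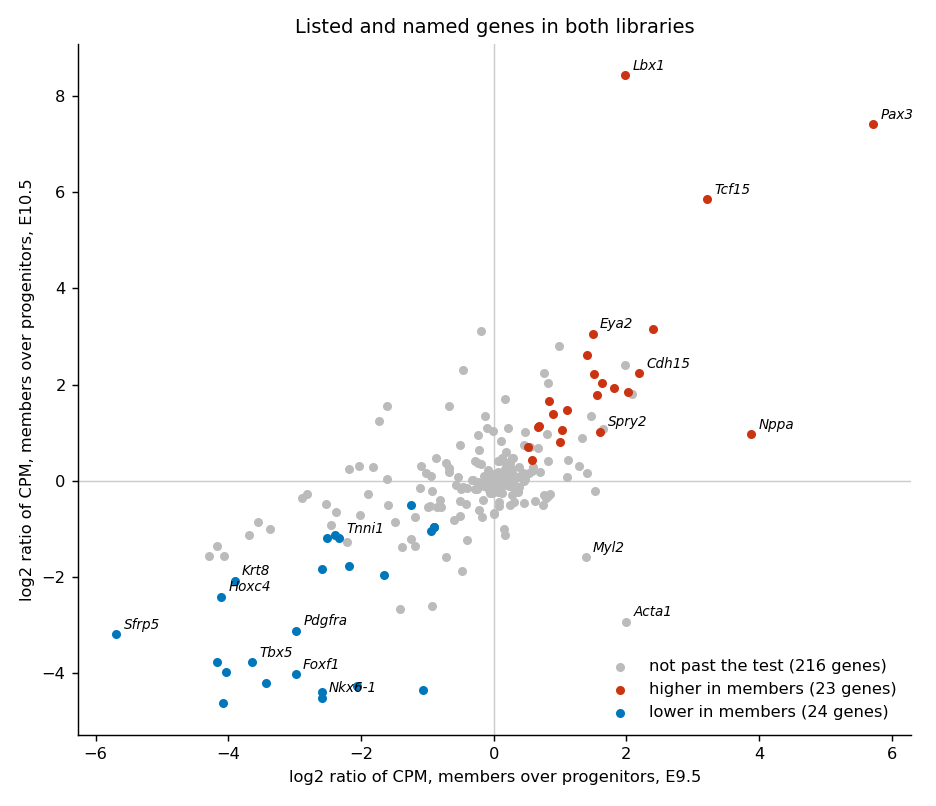
Log2 ratio of CPM between the myogenic cells (members) and the progenitors at E9.5 (horizontal axis) and E10.5 (vertical axis), 1 point for each listed or ranked gene with UMIs in both sets of both libraries, coloured by the edgeR call. Called genes lie in the upper right or lower left, Lbx1, Tcf15 and Pax3 had higher ratios at E10.5, and Nppa, Myl2 and Acta1 had higher ratios at E9.5.

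Calls were then repeated without the cells that held Pax3 or Lbx1, which is an alternative added once values were known. Tcf15 then had a log2 fold change of 0.21 against the progenitors and Eya2 of 1.26, and neither passed, nor did Spry2 at 1.20. Myog (5.33), Cdh15 (2.33), Rapsn (2.17), Cxcr4 (1.87), Ebf1 (1.16) and Cdkn1a (2.04) still passed. In DESeq2, run on all the cells, 15 of 41 named genes with a value lost their call, Myog, Lbx1 and Rapsn among them.

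Against all other retained cells without Myf5 and Myod1 (3804 and 7451 cells, the progenitors included), the myogenic cells differed at more genes. Of 14883 genes tested, 563 were higher (3.78%) and 1175 lower (7.89%). Both testable myogenic factors were higher, Myog at 6.18, from E10.5 UMIs alone, and Myf6 at 3.79 on the log2 scale. Myf6 was detected in only 3 of 107 myogenic cells at E9.5 and in 22 of 291 at E10.5. Of 13 branchiomeric upstream factors, 9 were higher, among them Lhx2 (3.45), Ebf1 (1.96), Msc (1.86), Tbx1 (1.66), Tcf21 (1.26), Isl1 (1.22), Tlx1 (1.09) and Ebf2 (1.09). Pitx1, Prdm1, Nkx2-6 and Ebf3 did not pass. The list median was 1.22 beside -0.03 over all genes tested. In DESeq2, 49 of 156 named genes lost their call in this comparison.

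Of the 10 genes in the list of Eya and Dach cofactors and partner factors, 6 were higher and 1 lower. Eya1 was at 33.9 and 120.0 CPM against 12.4 and 22.8 CPM (1.95, SE 0.17), Eya2 and Eya4 were among the others that were higher, and Dach2 was the lower gene (-1.27). Of 10 somitic genes, Pax3 (4.34), Lbx1 (3.76), Tcf15 (3.05), Cxcr4 (2.84) and Meox2 (1.04) were higher. At E9.5 Tcf15 was detected in 3 of 107 myogenic cells (2.80%) and in 159 of 3804 other cells (4.18%). Without the cells that held Pax3 or Lbx1 the value of Tcf15 became -1.69. Among called genes 2-fold or more in both libraries, Cdh15 had the highest fold change (4.36, SE 0.40, adjusted p = 8.02e-06 by edgeR), followed by Pax3, 1700028P14Rik (4.15), Pcdh8 (3.83), Myf6, Lbx1 and Tnfsf4 (3.72). Vgll3, a cofactor of TEAD proteins, was next at 40.6 and 38.4 CPM against 4.23 and 2.67 CPM (3.52), with Emx1 (3.49) and the perinatal myosin Myh8 (3.46) after it.

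Signalling, cell cycle and structural genes also differed from the other cells. Of 17 Notch pathway genes 5 were higher, Lfng (2.72), Dll1 (2.27), Heyl (1.72), Hes6 (1.25) and Hey1 (0.56), and Dlk1 was lower (-1.15). Dll1 was detected in only 2 of 107 myogenic cells at E9.5. Fgf10 (1.86), Spry2 (1.33), Etv5 (1.18), Dusp6 and Etv4 were higher. Cdkn1a was at 31.1 and 85.5 against 9.06 and 6.09 CPM (2.89), whereas Cdkn1c, Cdkn2c and Ccnd1 were lower. Of the 50 G2/M genes 8 were higher, among them Cdk1 (0.32) and Cenpf (0.33), and of the 37 S phase genes 3 were higher. After thinning Cdk1 stood at -0.061 and Kif2c, also among the 8, at -0.017. Of 30 sarcomere genes, Tpm2, Tnnt1, Ryr1 and Myh8 were higher and 17 were lower, among them the cardiac actin Actc1 (-2.42), where the dissected tissue included the heart. All 10 cardiomyocyte, all 8 endothelial and 6 of 7 macrophage markers were lower, as were all 8 erythroid markers in this comparison. Without cells of 20% or more haemoglobin UMIs in the comparison set, Alas2 stood at 1.00 and Klf1 at 0.13. Of 20 Hox genes 9 were lower and 0 higher, among them Hoxb4 at 5.91 and 43.7 CPM against 84.5 and 75.7 CPM (-1.76, adjusted p = 0.00513 by edgeR).

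A further comparison was made inside the myogenic cells, between those with at least 1 UMI of Myod1 (10 and 116 cells) and those without (97 and 175 cells). The sets had a median of 29461 and 17786.5 UMIs with Myod1 and 20650 and 17478 without, so at E9.5 detection moved with depth. Of 9064 genes tested, 17 were higher (0.188%) and 24 lower (0.265%) with Myod1, 31 of these 41 in the same direction in both libraries. Cells with Myod1 had more Myog, at 111 against 15.0 CPM at E10.5 and 0 in both sets at E9.5 (2.91, SE 0.28, adjusted p = 2.59e-05 by edgeR). This p-value also rests on E10.5 alone and measures no spread between libraries. With all cells thinned to 5000 UMIs, Myog (4.93) was the 1 gene of 1809 that passed. Cells with Myod1 also had more of the cell-cycle inhibitor Cdkn1c, at 578 and 899 against 372 and 582 CPM (0.65).

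Branchiomeric factors were among the genes that were lower with Myod1. Tlx1 was at 14.7 and 1.79 CPM with Myod1 against 68.3 and 19.3 without (-2.80, SE 0.40, adjusted p = 0.00115 by edgeR), and Isl1 at 99.8 and 55.4 against 175 and 176 CPM (-1.32, SE 0.19). Lhx2 (-0.86) and Ebf2 (-1.55) were lower as well, which made 4 of 10 tested lower, and 1 of the 10 was higher. The Notch ligand Jag1 (-1.98), Rgs2 (-1.58), Edn1, which encodes endothelin (-1.75), Igf1 (-1.70), Plcxd3 (-1.56) and Scmh1 (-1.35) were lower. Shox2 (1.69), Arg1 (1.97), Foxf1 (2.28) and Osr1 (2.36) were higher, and 1 cell held 86.7% of the E9.5 Osr1 UMIs. Pax3, Lbx1, Tcf15, Eya1, Cdh15 and Rapsn did not pass. Myf5, by which the cells without Myod1 were chosen, was at 29.4 and 52.8 CPM with Myod1 and 139 and 166 CPM without. A cell without Myod1 needed 2 UMIs of Myf5 to be chosen, and one with Myod1 could hold none. Differences in this comparison therefore cannot be told apart from differences in Myf5.

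The muscle genes Acta1, Myl2, Smpx and Tpm1 and the atrial hormone gene Nppa were called higher with Myod1, and for all but Tpm1 from 99.0 to 100% of the E9.5 UMIs came from 1 cell. The cell with 623 cardiac UMIs was 1 of these 10 cells. Without the cells with 10 or more cardiac UMIs, an alternative added after seeing the data, 47 genes were higher and 53 lower. Tpm1 then stood at 0.73 and Myog at 2.88, and both still passed. With edgeR's RLE scaling, 72 genes were higher and 49 lower, beside 17 and 24 with TMM. In DESeq2 only 7 genes passed, Cdkn1c among them, and the calls of Myog, Tlx1, Isl1 and Lhx2 were lost.

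At E10.5 the cells fell into groups by the upstream genes they carried, a division made after the values were seen and therefore described without a test. There were 210 cells with Tcf21, Msc, Lhx2 or Tbx1 and neither Pax3 nor Lbx1 (72.2%, 66.6 to 77.2%), 45 with Pax3 or Lbx1 and none of those 4 genes (15.5%, 11.5 to 20.1%), 29 with both kinds (9.97%) and 7 with neither. The 7 cells had a median of 8552 UMIs, below the 16944, 20806 and 19757 of the other groups in the order named. At E9.5 the counts were 103, 2, 2 and 0. Pax3 itself was detected in 23.7% of the E10.5 cells and in 16.2% after thinning, against 0.533% and 0.267% of endothelial cells. Tbx1 was found in 61.5% of the myogenic cells at this stage and 28.8% of endothelial cells (30.9% and 10.4% after thinning), and Tcf21 in 68.7% and 11.7% (41.2% and 3.73%). The shares for Lhx2 were 48.5% and 1.60%, and for Msc 39.9% and 2.40%. A cell could be placed by 1 UMI of Tbx1 or Tcf21, and the part of background in the sizes of the branchiomeric group and of the group with both kinds was not tested.

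The groups differed at Myog and at many upstream genes. Myog was at 74.1 CPM in the cells with Pax3 or Lbx1 only and at 37.0 CPM in the branchiomeric cells. For the genes that every cell was chosen on, Myf5 was at 145 CPM in the cells with Pax3 or Lbx1 only and at 110.2 CPM in the branchiomeric cells, and Myod1 at 74.1 and 61.9 CPM. Tcf15 was at 381 against 1.84 CPM, Meox1, a somitic homeobox gene, at 103 against 29.9 CPM, and Met, the receptor that migrating limb muscle precursors need, at 24.3 against 0.788 CPM. Eya2 was at 30.9 against 3.15 CPM. In the other direction Ebf1 was at 4.42 against 336 CPM and Isl1 at 4.42 against 171 CPM. Both Car3, at 2.21 against 68.2 CPM, and Emx2, at 0 against 42.0 CPM, were high in the branchiomeric cells, and Erbb3, at 39.8 against 0.525 CPM, was high in the others. Emx2 and Erbb3 were picked out after their values were seen. Cells with both kinds of gene lay between for Tcf15 (299 CPM), Ebf1 (71.0 CPM) and Isl1 (56.2 CPM).

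Hox genes, which mark position along the body axis, differed by group and by gene. Hoxa3 was at 42.0 CPM in the cells with Pax3 or Lbx1 only and 4.46 CPM in the branchiomeric cells, Hoxb2 at 91.7 against 19.7 CPM and Hoxb4 at 69.6 against 32.3 CPM. Hoxa5 was at 1.11 against 22.6 CPM. Myog was detected in 30 of the 45 cells with Pax3 or Lbx1 only (66.7%, 51.0 to 80%) and in 33 of the 210 branchiomeric cells (15.7%, 11.1 to 21.4%), with 11 of 29 and 2 of 7 in the other groups. Myod1 was detected in 18, 83, 10 and 5 cells of these groups. Myod1 was part of the rule, and its counts are a description only.

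**Figure D4:**
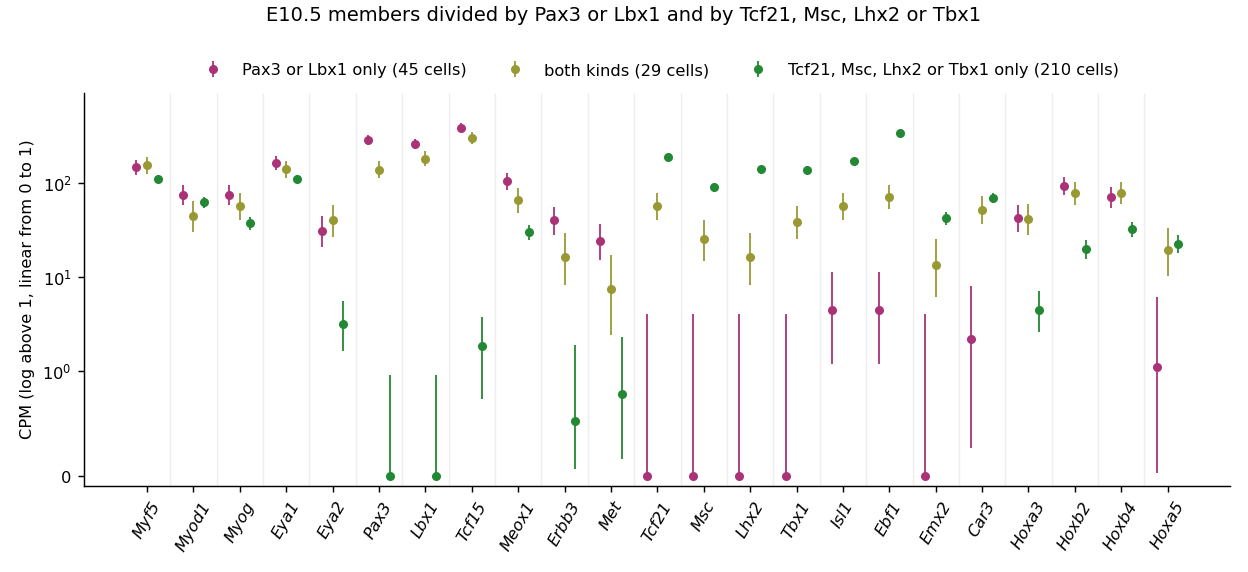
CPM (vertical axis, logarithmic above 1 and linear from 0 to 1) of 23 genes in E10.5 myogenic cells with Pax3 or Lbx1 only, with both kinds of gene, and with Tcf21, Msc, Lhx2 or Tbx1 only, with exact Poisson 95% intervals; the 7 cells with neither kind are not drawn. The groups lay close together for Myf5, which the rule used, whereas values of Tcf15, Met, Erbb3, Ebf1, Isl1 and the Hox genes were spread apart, and the zeros of Pax3, Lbx1, Tcf21, Msc, Lhx2 and Tbx1 follow from the division.

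The 76 cells with Myog were also set beside the 215 without it. Myog was found in 35 of 175 cells with Myf5 only, 15 of 54 with both genes and 26 of 62 with Myod1 only. Cells with Myog had Myod1 at 117 CPM against 42.5, Tcf15 at 229 against 52.3 CPM and Dll1 at 12.3 against 4.04 CPM. They had Ebf1 at 115 against 294 CPM, Tcf21 at 73.3 against 163 CPM, Msc at 25.3 against 80.1 CPM and Isl1 at 73.9 against 147 CPM. Myf5 stood at 119 and 121 CPM in these sets. Of the 76 cells 41 carried Pax3 or Lbx1, as did 33 of the 215, so these values move with the division above.

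Between stages the myogenic cells were compared without a test, as the log2 ratio of CPM at E10.5 over E9.5 with an exact conditional binomial interval. Of 9066 genes with 40 or more UMIs, 487 were past 2-fold higher (5.37%) and 208 past 2-fold lower (2.29%) at E10.5, against 4.66% and 3.09% of genes in the progenitors and 7.99% and 4.72% in all other cells. Myod1 was 8.03-fold higher (log2 interval 2.36 to 3.73), and Myog was at least 45.7-fold higher, computed against 3 UMIs in the E9.5 sum. Of 11 early muscle targets 5 were past 2-fold higher and 0 lower, and of 16 sarcomere genes 3 were higher and 6 lower (list median -0.57). At E9.5 the 35 listed sarcomere genes summed to 4257 CPM in the 10 cells with Myod1, among them the cell with 623 cardiac UMIs. They summed to 651 CPM in the 97 cells without Myod1, below 1171 CPM in such cells at E10.5. The ratios of the 6 lower genes include that cell. Cdh15 differed by 2.30 in the myogenic cells and 2.26 in the progenitors, Rapsn by 2.39 and 2.28, and Tnnt1 by 2.89 and 2.05. Eya1 differed by 1.82 and 1.38.

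Of 7 somitic genes in the myogenic cells 4 were past 2-fold higher at E10.5, Pax3, Lbx1, Tcf15 and Meox1, and 0 lower. The progenitor values are set beside them, although a cell with these genes and without Tcf21, Msc and Lhx2 could not enter that set. Lbx1 differed by 4.76 (3.63 to 6.22) in the myogenic cells and -1.69 (-4.96 to 0.64) in the progenitors, Tcf15 by 3.11 and 0.47, and Meox1 by 2.70 and -0.08. All 9 Hox genes with enough UMIs were past 2-fold higher, Hoxa2 by 2.56, Hoxa3 by 2.71, Hoxa5 by 2.97, Hoxb2 by 1.75, Hoxb4 by 2.88 and Hoxd4 by 4.01. The progenitor ratios of these were 0.95, 0.27, 0.62, 0.04, 0.32 and 1.04. Of 10 branchiomeric factors 4 were past 2-fold lower at E10.5 and 0 higher, with a list median of -0.31 beside -0.04 over all genes. Tbx1 was at -1.57 in the myogenic cells and -0.88 in the progenitors, Lhx2 at -1.59 and -1.54, and Tlx1 at -2.33 and -1.17, while Ebf1 (-0.16), Tcf21 (-0.23) and Msc (0.29) stayed within 2-fold. Jag1 was at -1.61 and 0.13, and endothelin Edn1 at -3.03 and -1.54. The difference of the ratios between the sets was not tested.

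**Figure D5:**
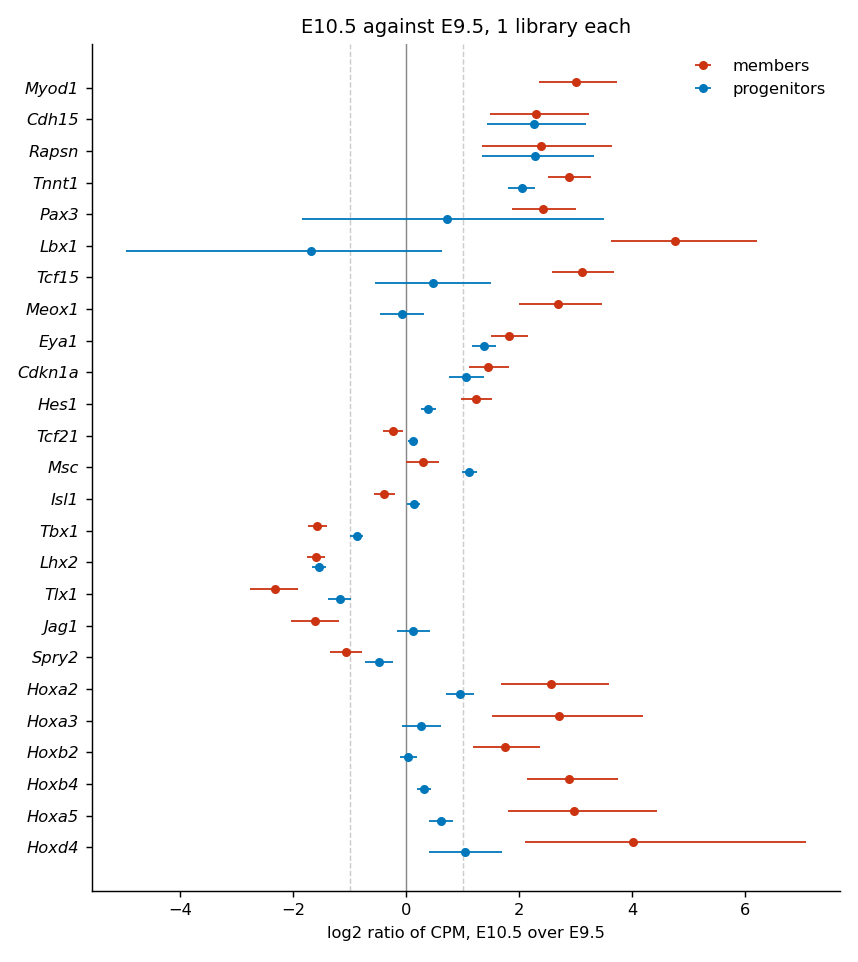
Log2 ratio of CPM, E10.5 over E9.5 (horizontal axis), for 25 genes in the myogenic cells (members) and the progenitors, with exact conditional binomial 95% intervals and dashed lines at 2-fold. The sets lie together for Cdh15, Rapsn and Lhx2 and apart for Lbx1, Tcf15, Meox1, Jag1 and Hoxb4.

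Some of the largest stage ratios were shared by all cells or came from single cells. The 8 erythroid markers summed to 369 and 108392 CPM in all other cells and stood far higher at E10.5 in the myogenic cells and progenitors too, and 7 of 7 with enough UMIs were past 2-fold higher in the myogenic cells. Alas2, the haem synthesis enzyme of red cells, was therefore among the top ranked. Tpm3-rs7 was at -4.94 in the myogenic cells and -5.01 in the progenitors, and Gm5611 at -4.47 and -4.32. Acta1, Nppa and Myl2 were ranked lower at E10.5, with from 88.1 to 100% of E9.5 UMIs in 1 cell, and 1 cell held 94.0% of the E10.5 Mpo UMIs and 43.4% of those of Mt2. Car3, a carbonic anhydrase of muscle, was at 0.394 and 54.6 CPM (7.11, 4.62 to 12.42) and at 1.57 and 11.7 CPM in the progenitors (2.90). Bcl11a (5.93) and Moxd1 (4.57) were also ranked higher, against 3.01 and 3.12 in the progenitors.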

How the data were processed

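The deposited values were raw UMI counts per gene and cell, which the authors made with Cell Ranger 3.1.0 on the mouse build mm10 from 10x Chromium 3′ v2 libraries. Per the labels these were the filtered barcodes of each library, and no normalization had been applied. The sets of cells, the gene lists and the tests were chosen with earlier results of these data known.

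Cells with 1000 or more genes and at most 10% mitochondrial UMIs were retained (4052 of 4055 cells at E9.5, 8042 of 8070 at E10.5). Raw UMI counts were summed per library and cell set. Genes with 40 or more UMIs over the sums were fitted with edgeR 4.0.16 in R 4.3.3 (quasi-likelihood test, TMM scaling, library as block), with Benjamini-Hochberg adjustment at 0.05. Myf5 and Myod1, and Tcf21, Msc and Lhx2 against the progenitors, were not tested. Between stages there is 1 library each, so genes past 2-fold are listed with intervals that cover counting error only. Cells were thinned to 5000 UMIs for shares compared across depths.

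All genes of 20 lists could be named, and beside them the 10 called genes with the largest log2 fold change in each direction among those with the same direction and 2-fold or more in both libraries. Between stages these were the 10 genes past 2-fold whose interval bound lay farthest from 0 in each direction. Haemoglobin, mitochondrial, ribosomal protein and sex-linked genes were not named by rank. Some genes that the lists or the ranking hold are not reported here, though they stayed in the fits and counts. Doublets were not removed from the main sets. Scrublet, run through scanpy 1.11.5, called 1 cell at E9.5 and 92 at E10.5 by its own threshold. The alternative that removed the highest scores, at 0.8% per 1000 cells, took 4 of the 107 and 23 of the 291 myogenic cells. These were 3.74% and 7.90% of the myogenic cells, beside 3.23% and 6.43% of all retained cells.

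The alternatives were other UMI thresholds, thinning, removal of doublets, no cell filter, progenitors chosen by Tbx1, other cells without erythroid and endothelial cells, DESeq2 1.42.0, RLE scaling, no filter on low counts and no library block. On simulated counts with known changes, the fit recovered 74.7% of 2-fold and 93.9% of 4-fold changes against the progenitors (11740 genes). Against all other cells (14888 genes) it recovered 55.0% and 83.0%, and between cells with and without Myod1 (9030 genes) 47.9% and 91.7%. The simulated counts gave every gene the same dispersion and held no stage difference, so these rates need not hold for the observed counts. Promoter windows and positions came from RefSeq on GRCm38.p6, in which 240 of 328 listed genes had a window.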

Additional observations from a re-analysis of the deposited data

Results flagged for a closer look

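Cells that met the same rule were also found in the earlier libraries, which no comparison above used. There were 23 such cells among 7577 retained at E8.0 (0.304%) and 18 among 2954 at E8.25 (0.609%). Of endothelial cells 0 of 253 and 0 of 114 met the rule, which allows shares of up to 1.19% and 2.63%. These limits lie above the shares of the chosen cells, so the endothelial counts cannot separate them from background. The chosen cells carried somitic genes, with Meox1 at 862 and 610.3 CPM, Tcf15 at 666 and 668 CPM and Pax3 at 83.6 and 55.7 CPM. Tcf21 was at 0 and 13.3 CPM, Lhx2 at 1.58 and 0 CPM and Tbx1 at 6.31 and 30.3 CPM, and Lbx1 and Myog had 0 UMIs in both libraries.

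A group of 12 listed genes had a log2 ratio of the myogenic cells over the progenitors that pointed one way at E9.5 and the other way at E10.5, with each library's counting interval on its own side of 0. The difference between the stages was not tested. As the E10.5 ratio minus the E9.5 ratio, it was 2.10 for Dlk1, 1.40 for Twist1, 1.19 for Cdkn1c, 1.10 for the neuronal tubulin gene Tubb3, 0.94 for Tpm1 and 0.61 for Id3. It was -0.12 for Hmgb2, -0.24 for Top2a, -0.35 for Cenpf and -0.56 for Tcf12. Acta1 gave -4.93 and Myl2 gave -2.98, and for these genes 88.7% and 88.1% of the E9.5 UMIs came from 1 cell.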

How the results depend on the processing

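The number of myogenic cells followed the threshold: with 1 UMI or more it was 248 in the E9.5 library and 591 in the E10.5 library, with 3 or more 48 and 153, and 25 and 72 when cells were thinned to 5000 UMIs first. Against the progenitors, where 229 genes passed, 61 passed with the threshold of 1 UMI, 11 after thinning, 960 with progenitors chosen by Tbx1, 382 without cells of 10 or more cardiac UMIs, 110 in DESeq2 and 1066 without a filter on low counts. Against all other cells (1738), 1148 passed with 1 UMI, 290 after thinning and 804 in DESeq2. Between cells with and without Myod1 (41), 1 passed after thinning, 63 with the highest doublet scores removed, 100 without cells of cardiac UMIs, 7 in DESeq2, 121 with RLE scaling and 109 without a filter on low counts. Without the library block 0 genes passed in any of the 3 edgeR comparisons, with 545, 1454 and 142 at an unadjusted p under 0.05. With a filter of 20 UMIs, 1120 genes were past 2-fold between stages, beside 695.

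After thinning, 5 named genes turned against the progenitors, 19 lost their call and 6 kept it. Against all other cells these counts were 2, 75 and 75, and between cells with and without Myod1 0, 5 and 1. Named genes without a value after thinning are not in these counts. Against the progenitors, thinning gave -0.011 for Ebf1, -0.47 for Etv4, -0.064 for Tcf4, 0.29 for Sox9 and 0.086 for Hbb-bh1, the threshold of 1 UMI gave 1.04 for Hbb-bh1, and progenitors chosen by Tbx1 gave 0.31 for Myl7. Against all other cells, thinning gave -0.061 for Cdk1 and -0.017 for Kif2c. Leaving endothelial cells and cells with 100 or more UMIs of Hbb-y plus Hba-x out of the comparison set alone gave 0.76 for Hbb-bh1, 1.33 for Hba-a1, 0.67 for Hba-a2, 1.34 for Alas2 and 0.30 for Klf1. At E10.5 1666 cells passed that haemoglobin limit, 45 of them myogenic cells, which were kept, so the alternative raises the myogenic side by construction. Leaving out cells with 20% or more haemoglobin UMIs, an alternative chosen after seeing the data, gave 1.00 for Alas2 and 0.13 for Klf1. Without cells that held Pax3 or Lbx1, also chosen afterwards, Tcf15 gave -1.69. No replicate could be left out with 1 library per stage, and the labels give no replicate numbers, so the fits paired the cell sets by library only. Thinned sums hold fewer UMIs and fewer genes tested (6135, 12994 and 1809 in the order above). The cause of the other changes was not tested.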
